A study of Mus musculus with 2 samples.

Results

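Matrix proteases and their inhibitors were followed in cultured neural stem cells of mice with a conditional knockout of Hikeshi, a nuclear import carrier of HSP70 proteins, and of wild-type mice. All genes were taken whose symbol begins with Mmp, Timp or Adam and a digit, or with Adamts. This gave 58 of the 15953 genes in the expression table, made up of 15 matrix metalloproteases (MMP), 4 tissue inhibitors of metalloproteases (TIMP), 15 ADAM genes and 24 ADAMTS genes, the last including 5 ADAMTS-like genes that encode no protease domain. The cells came from Hikeshi conditional knockout (cKO) mice and from wild-type mice, were kept in suspension culture, and gave 1 library per genotype. Age, the promoter that drives the deletion, the part of the gene that is removed and the number of animals behind each library are not stated in the labels.

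Matrix metalloproteases are zinc enzymes that cut collagens, proteoglycans and cell surface proteins, some secreted and some anchored in the membrane. TIMP proteins bind and block their active sites, and TIMP3 stays bound to the matrix and also blocks ADAM17 and several ADAMTS enzymes. ADAM proteins are membrane proteases that release the outer part of receptors, ligands and adhesion molecules, among them NOTCH receptors and growth factors of the EGF family. ADAMTS enzymes are secreted and cut proteoglycans such as versican, brevican and aggrecan, which fill the matrix around neural progenitors, or trim procollagens.

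Levels are given as reads, as CPM (reads per 1000000 reads counted) and, between genes, as the deposited TPM, which also accounts for length. A ratio is CPM in cKO-labelled cells over CPM in wild-type-labelled cells, with its 95% exact binomial interval, which covers counting error only and compares libraries, not genotypes. The libraries are named by their labels, as cKO-labelled and wild-type-labelled cells. A gene was kept at 1 CPM or more in at least 1 library, and it was counted as higher or lower when the CPM values, each with 1 CPM added, lay at least 1.5-fold apart (0.58 on the log2 scale). Each genotype has 1 library, so the differences below have no replicate check and no test.

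In all, 18912700 reads (cKO) and 18839088 reads (wild type) were counted. Hikeshi itself had 640 reads in cKO-labelled cells and 718 in wild-type-labelled cells, a ratio of 0.888 (0.797 to 0.989), and counts over a whole gene do not check a deletion of part of it, so the genotype is taken from the labels. Of 11 neural stem cell markers all were kept, Sox2 and Nes among them, with a median log2 difference of -0.01. Of these 2 were higher in cKO-labelled cells (Tnc, ratio 3.29, and Vim, 1.69) and 3 lower (Hes5, Prom1 and Fabp7). The summed reads of the 11 markers had a ratio of 1.46. Their summed TPM was nearly equal, at 10772.5 (cKO) and 10794.8 (wild type), so the higher sum was not seen on both scales. The libraries also differed in 4 of 4 Y-linked genes, with 2931 reads in cKO-labelled cells and 1 in wild-type-labelled cells. Markers of glia differed too, 12 of 12 astrocyte and 12 of 16 kept oligodendrocyte lineage markers being lower in cKO-labelled cells. The part of these differences in the results below was not tested.

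Among the 41 members kept, 6 were higher and 6 lower in cKO-labelled cells. Over all 12618 kept genes 4.22% were higher and 10.2% lower by the same rule. The higher members were Adam19, Adamts1, Adamts8, Adamts15, Adamts19 and Adamtsl3, and the lower ones were Timp3, Mmp14, Mmp24, Adam23, Adamts3 and Adamtsl2. Together the members took 0.235% of the reads in cKO-labelled cells and 0.220% in wild-type-labelled cells. By family the median log2 difference was -0.01 for MMP, 0.16 for TIMP, 0.05 for ADAM and 0.33 for ADAMTS genes, beside -0.02 over all kept genes, and the signs of the MMP and ADAM medians turned under other settings. At 2-fold 2 members were higher (Adamts8 and Adamtsl3) and 3 lower (Timp3, Adam23 and Adamtsl2), where 1.25% and 3.85% of all kept genes were. Adamts1, at a log2 difference of 0.63, was the member nearest the threshold on its outer side. On the inner side the nearest were Adam11 at -0.58, Mmp16 at -0.55 and Adamtsl4 at 0.54.

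**Figure D1:**
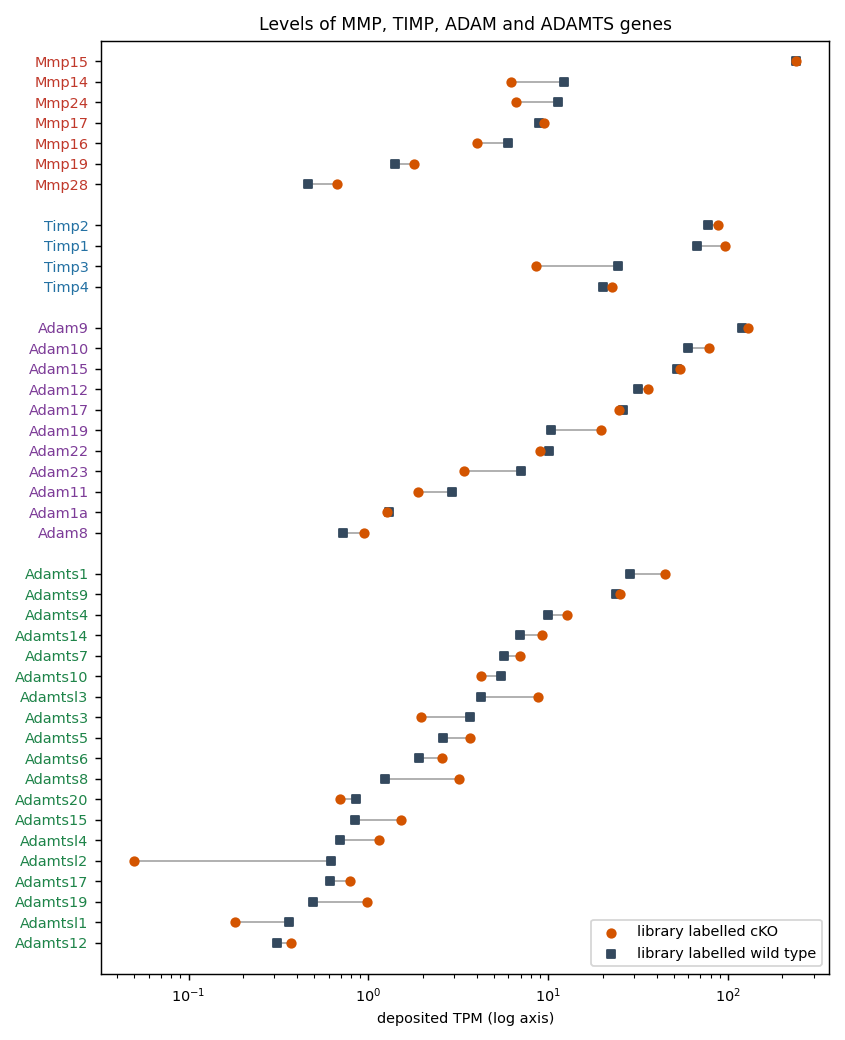
Deposited TPM (log axis) of the 41 kept members in cKO-labelled cells (orange circles) and wild-type-labelled cells (dark squares), by family, joined by a grey line. Mmp15 stands at 239 TPM in both libraries, while Timp3 lies at 8.52 TPM in cKO-labelled and 24.3 TPM in wild-type-labelled cells.

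Timp3, the matrix-bound inhibitor, was the TIMP that differed most. It had 433 reads in cKO-labelled cells and 1238 reads in wild-type-labelled cells, or 22.9 CPM (cKO) against 65.7 CPM (wild type). The level in cKO-labelled cells was 2.87-fold lower (2.57 to 3.21). In bulk RNA, fewer cells of a type and less RNA per cell cannot be told apart. Timp3 (Entrez 21859) lies on chromosome 10, 86300412 to 86349505 (GRCm38.p6), inside the synapsin gene Syn3 and on its opposite strand, and the exons of the pair share 1733 bases. Syn3 had 232 reads in cKO-labelled and 170 in wild-type-labelled cells, the opposite direction, and the labels do not state the strand setting of the counting. Reads of both genes summed to 665 (cKO) and 1408 (wild type), which is 2.13-fold lower (1.94 to 2.33).

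The other three TIMP genes were within 1.5-fold, each with more reads in cKO-labelled cells. Timp1, a secreted inhibitor induced by growth factors, had 642 reads in cKO-labelled and 447 in wild-type-labelled cells, a ratio of 1.43 (1.27 to 1.62). For Timp2, which also takes part in the activation of proMMP2 by MMP14, the counts were 3362 (cKO) and 2961 (wild type), a ratio of 1.13 (1.08 to 1.19). Timp4 had 690 reads (cKO) against 620 (wild type), and its interval (0.993 to 1.24) included 1. Like Timp3, Timp1 and Timp4 lie inside synapsin genes on the opposite strand. Syn1, which holds Timp1, had 878 reads (cKO) and 799 (wild type) and shares no exon base with it. Syn2, which holds Timp4, had 1639 (cKO) and 1891 (wild type) and shares 90, and the reads of Timp4 and Syn2 together had a ratio of 0.924 (0.873 to 0.978), below 1 where that of Timp4 alone lay above it. Timp2 holds Cep295nl in an intron, with 9 reads (cKO) and 5 (wild type).

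Reads of the 4 TIMP genes summed to 5127 in cKO-labelled cells and 5266 in wild-type-labelled cells, a ratio of 0.970 with an interval (0.933 to 1.01) that included 1. In TPM the sum lay the other way, at 214 (cKO) and 188 (wild type), so the total has no direction that holds on both scales. The share of Timp3 was lower in cKO-labelled cells on both. Timp3 held 8.45% of the TIMP reads (7.70 to 9.24, exact binomial interval) in cKO-labelled and 23.5% (22.4 to 24.7) in wild-type-labelled cells, while Timp2 held 65.6% (64.3 to 66.9) in cKO-labelled and 56.2% (54.9 to 57.6) in wild-type-labelled cells. Of the summed TPM, Timp3 held 3.99% (cKO) and 12.9% (wild type), Timp1 44.6% (cKO) and 35.6% (wild type), Timp2 40.8% in both, and Timp4 10.5% (cKO) and 10.7% (wild type). So the higher read share of Timp2 and Timp4 was not seen per length. In TPM, Timp1 was the most abundant TIMP in cKO-labelled cells at 95.4 TPM, ahead of Timp2 at 87.2 TPM, while in wild-type-labelled cells Timp2 led at 76.8 TPM and Timp1 had 67.1 TPM.

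**Figure D2:**
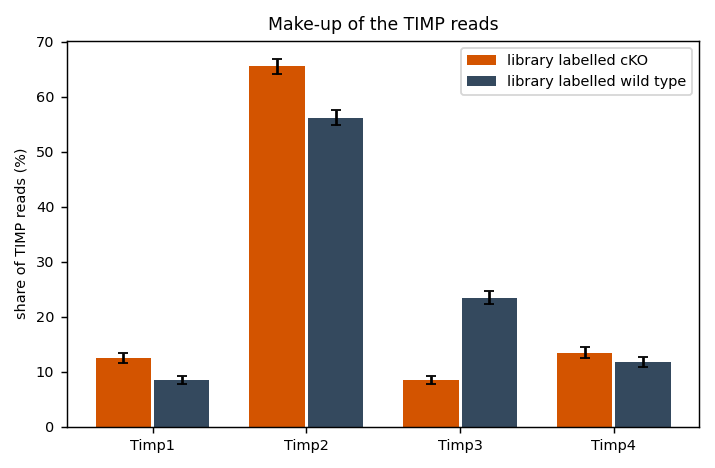
Share of the reads of the 4 TIMP genes (in %) held by each gene in cKO-labelled cells (orange, left bar) and wild-type-labelled cells (dark, right bar), with 95% exact binomial intervals. The Timp3 share is 8.45% in cKO-labelled and 23.5% in wild-type-labelled cells, and the read shares of the other three genes are higher in cKO-labelled cells, which for Timp2 and Timp4 does not hold in TPM.

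Stretches upstream of 4 genes are shown as examples of the inhibitors and proteases that went different ways: Timp3 and Mmp14, lower in cKO-labelled cells, Adamts1, higher, and Timp1, the TIMP with the highest ratio. Each line gives 200 bases, from 250 to 51 bases before the RefSeq start (GRCm38.p6), 5′ to 3′ on the strand of the gene.
Timp3 (chr10:86300162-86300361, plus strand): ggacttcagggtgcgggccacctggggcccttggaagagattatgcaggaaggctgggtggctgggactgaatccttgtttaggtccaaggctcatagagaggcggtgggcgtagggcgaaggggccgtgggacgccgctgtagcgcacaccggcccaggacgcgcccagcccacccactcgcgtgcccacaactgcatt
Timp1 (chrX:20869916-20870115, plus strand): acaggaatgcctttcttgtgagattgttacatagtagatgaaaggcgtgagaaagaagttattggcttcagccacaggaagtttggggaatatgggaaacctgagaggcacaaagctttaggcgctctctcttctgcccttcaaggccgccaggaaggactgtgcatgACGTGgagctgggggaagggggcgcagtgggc
Mmp14 (chr14:54431348-54431547, plus strand): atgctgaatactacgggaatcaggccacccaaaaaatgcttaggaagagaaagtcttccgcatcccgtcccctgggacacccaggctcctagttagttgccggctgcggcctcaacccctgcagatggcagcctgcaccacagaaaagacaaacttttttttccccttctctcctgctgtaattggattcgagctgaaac
Adamts1 (chr16:85803164-85803363, minus strand): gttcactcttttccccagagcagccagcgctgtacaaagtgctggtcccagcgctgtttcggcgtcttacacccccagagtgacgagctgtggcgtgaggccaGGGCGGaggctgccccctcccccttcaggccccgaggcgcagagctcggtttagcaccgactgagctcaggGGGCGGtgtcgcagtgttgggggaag

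Capitals in these lines mark matches to 5 short motifs searched on both strands, with no overlap between them: GGGCGG (SP1), TGANTCA (AP-1), ACGTG (the core of a hypoxia response element), GAANNTTC (a heat shock element) and TATAAA. The Timp1 stretch held 1 match to ACGTG and the Adamts1 stretch 2 to GGGCGG, and the letters of the 5 motifs were not in the Timp3 and Mmp14 stretches. GC content was 65.5% in the Timp3 stretch, 52.5% in that of Timp1, 52.0% in that of Mmp14 and 65.5% in that of Adamts1. Among 32851 upstream stretches of the same length in the RefSeq table, 24.6% held GGGCGG, 5.57% TGANTCA, 12.9% ACGTG, 5.17% GAANNTTC and 9.14% TATAAA. Counted by gene, over the 10102 kept genes with such a stretch, the shares were 50.5% for GGGCGG, 4.41% for TGANTCA, 19.6% for ACGTG, 4.86% for GAANNTTC and 5.68% for TATAAA. Of the 41 kept members 26 had a stretch in that table, and 10 of these (38.5%) held GGGCGG, 6 (23.1%) ACGTG, 1 TGANTCA, 1 GAANNTTC and 0 TATAAA. A member with several stretches, as Adam19, was counted once if any of them held the motif. A match describes the letters only.

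Reads of MMP genes came nearly all from the members grouped here as membrane-anchored, 12613 of 12732 in cKO-labelled and 13270 of 13379 in wild-type-labelled cells. Mmp15, a transmembrane MMP, held 11144 reads in cKO-labelled cells and 11147 in wild-type-labelled cells, with a ratio of 0.996 (0.970 to 1.02). It alone took 87.5% (86.9 to 88.1) of the MMP reads in cKO-labelled and 83.3% (82.7 to 83.9) in wild-type-labelled cells, at 239 TPM in both. Mmp14, Mmp16 and Mmp24, also transmembrane, were at lower levels in cKO-labelled cells.

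Mmp14, the transmembrane collagenase that activates proMMP2, had 251 reads in cKO-labelled cells and 497 in wild-type-labelled cells, or 13.3 CPM (cKO) against 26.4 CPM (wild type), and was 1.99-fold lower (1.70 to 2.32). Mmp24, an MMP of neural tissue that can cut N-cadherin, had 306 reads (cKO) and 529 (wild type), a ratio of 0.576 (0.499 to 0.665). Mmp16, with 449 (cKO) and 665 (wild type) reads, had a ratio of 0.673 (0.595 to 0.759), just within the threshold. The GPI-anchored Mmp17 had 459 reads in cKO-labelled and 429 in wild-type-labelled cells, and its interval (0.932 to 1.22) included 1. So among 5 kept membrane-anchored members 2 were lower and 0 higher, with a median log2 difference of -0.55. Over all kept genes 10.2% were lower and 4.22% higher.

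MMP genes outside the membrane-anchored group had few reads in both libraries, at most 64. Mmp19 had 64 reads in cKO-labelled cells and 49 in wild-type-labelled cells, and Mmp28, which passed the filter in cKO-labelled cells only, had 25 (cKO) and 17 (wild type). Both intervals included 1 (0.883 to 1.93 for Mmp19, 0.760 to 2.89 for Mmp28), and Mmp19 shares 789 exon bases with Tmem198b on the opposite strand. The gelatinases Mmp2, with 8 reads (cKO) and 10 (wild type), and Mmp9, with 9 (cKO) and 8 (wild type), were below the filter, as were the stromelysin-type genes Mmp11, with 9 (cKO) and 18 (wild type), and Mmp3, with 1 (cKO) and 0 (wild type). Mmp23 had 2 (cKO) and 6 (wild type) reads, the GPI-anchored Mmp25 had 4 (cKO) and 3 (wild type), Mmp21 had 1 (cKO) and 0 (wild type), and Mmp27 had 0 (cKO) and 1 (wild type). At such counts below the filter a difference was not detectable.

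**Figure D3:**
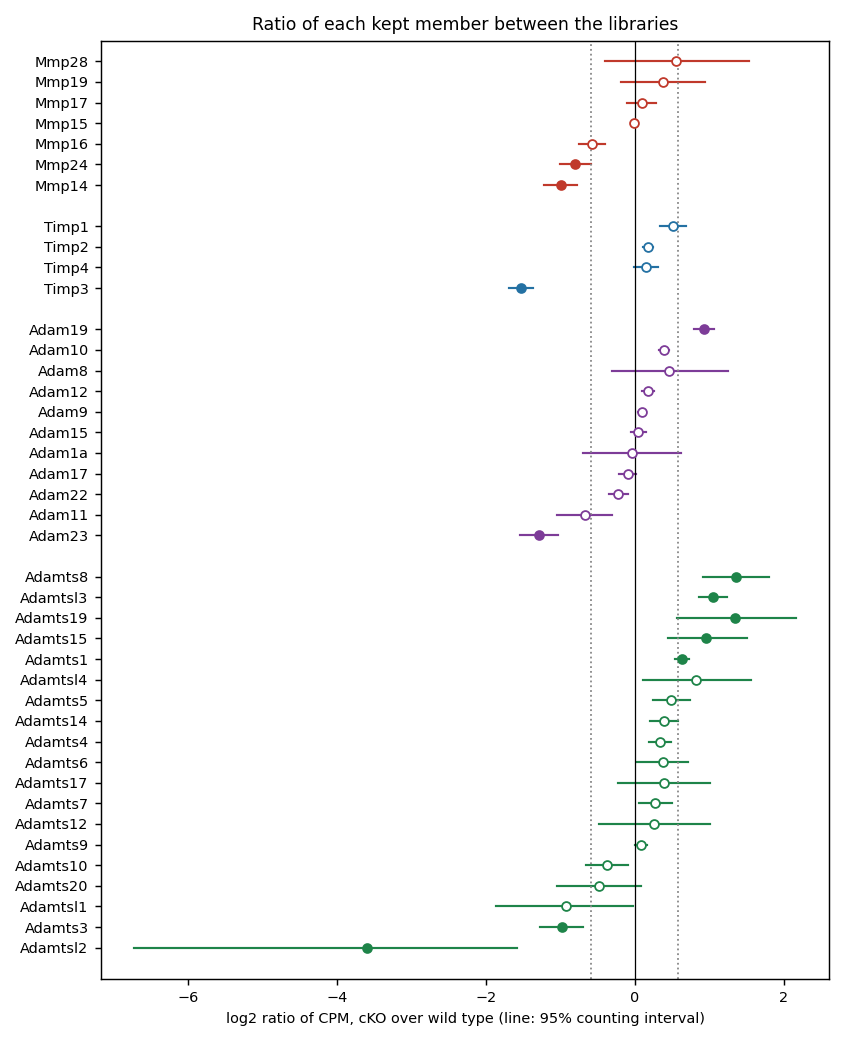
Log2 ratio of CPM, cKO over wild type, for the 41 kept members by family, with 95% counting intervals as lines, filled points for members counted as higher or lower and dotted lines at 1.5-fold. Timp3, at 2.87-fold lower, stands apart from the other three TIMP genes, and ADAMTS genes lie mostly to the right of 0.

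The 7 genes grouped here as proteolytic ADAM genes summed to 16813 reads (cKO) and 14472 (wild type). Of these, 6 lay above 0, where 47.8% of all kept genes did, and 1 was past 1.5-fold. ADAM genes known for roles in sperm were grouped apart, whether or not they encode an active protease. Adam9 led the family with 5592 reads in cKO-labelled cells and 5190 in wild-type-labelled cells, or 129 TPM (cKO) against 120 TPM (wild type). Its ratio was 1.07 (1.03 to 1.11). Adam10, the sheddase that cuts NOTCH receptors, N-cadherin and the amyloid precursor protein, had 3921 reads (cKO) and 2975 (wild type), a ratio of 1.31 (1.25 to 1.38). Adam12, a protease that can release EGF family ligands, had 3070 (cKO) and 2705 (wild type) reads, a ratio of 1.13 (1.07 to 1.19).

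Adam19, which can release neuregulin, was the member of this group past the threshold. It had 1326 reads in cKO-labelled cells and 693 in wild-type-labelled cells, or 70.1 CPM (cKO) against 36.8 CPM (wild type), a ratio of 1.91 (1.74 to 2.09). In contrast, Adam17, the sheddase of TNF and of several EGF receptor ligands, had 1181 reads (cKO) and 1256 (wild type), and its interval (0.864 to 1.01) included 1. Adam17 shares 311 exon bases with Iah1 on the opposite strand, and the reads of both summed to a ratio of 0.873 (0.816 to 0.935). Among the other named members, Adam19, Adam15, Adamts8, Adamts9 and Mmp24 share between 424 and 1381 exon bases with annotated genes on the opposite strand. Adam15 (1687 (cKO) and 1627 (wild type) reads) and Adam8 (36 (cKO) and 26 (wild type) reads) also had intervals that included 1.

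ADAM proteins without an active site, which act in the brain as receptors of secreted LGI proteins, were lower or near equal. Adam23 had 180 reads in cKO-labelled cells and 435 in wild-type-labelled cells, or 9.52 CPM (cKO) against 23.1 CPM (wild type), and was 2.43-fold lower (2.03 to 2.90). Adam11 had 99 reads (cKO) and 157 (wild type), 1.59-fold lower without the added value (1.23 to 2.07) but just within 1.5-fold with it. Adam22 had 860 (cKO) and 997 (wild type) reads, 1.16-fold lower (1.06 to 1.28). Together the reads of these 3 genes had a ratio of 0.714 (0.661 to 0.771), against 1.16 (1.13 to 1.18) for the 7 proteolytic ADAM genes.

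Of the ADAM genes known for roles in sperm, Adam1a was kept, with 41 reads in cKO-labelled cells and 42 in wild-type-labelled cells. It shares 1805 exon bases on the same strand with Mapkapk5, so its own level is uncertain. Adam5, with 11 (cKO) and 12 (wild type) reads, Adam4, with 4 (cKO) and 1 (wild type), Adam32, with 1 (cKO) and 2 (wild type), and Adam21, with 0 (cKO) and 3 (wild type), were below the filter.

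ADAMTS genes held the largest share of higher members, 5 of 19 kept, while 2 were lower. Over all kept genes 4.22% were higher and 10.2% lower. Their reads summed to 8499 in cKO-labelled cells and 6677 in wild-type-labelled cells, a ratio of 1.27 (1.23 to 1.31). Of the 19 kept, 14 lay above 0, where 47.8% of all kept genes did.

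The proteoglycanase group, 7 genes that cut versican, aggrecan or related molecules, contributed 3 of the higher members and 0 lower ones. Of all kept genes 4.22% were higher and 10.2% lower, and at such a share 0 lower among 7 is unremarkable. Adamts1 had 2354 reads in cKO-labelled cells and 1510 in wild-type-labelled cells, or 124 CPM (cKO) against 80.2 CPM (wild type), a ratio of 1.55 (1.46 to 1.66). Adamts8 had 159 reads (cKO) and 62 (wild type), a ratio of 2.55 (1.89 to 3.48). Adamts15 had 92 (cKO) and 47 (wild type) reads, a ratio of 1.95 (1.36 to 2.83). Its deposited TPM was low, at 1.52 (cKO) and 0.84 (wild type), and with 1 TPM added to each it lay within 1.5-fold. Adamts1 and Adamts9 had the most reads of the family, and Adamts9 differed little, with 2279 reads (cKO) and 2142 (wild type).

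The aggrecanases Adamts4 and Adamts5 lay above 0 within 1.5-fold. Adamts4, a gene also expressed by oligodendrocytes, had 888 reads in cKO-labelled cells and 698 in wild-type-labelled cells, a ratio of 1.27 (1.15 to 1.40). Adamts5 had 334 (cKO) and 237 (wild type) reads, a ratio of 1.40 (1.18 to 1.67). Adamts20 was the member of the group below 0, with 47 (cKO) and 65 (wild type) reads and an interval (0.484 to 1.06) that included 1.

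Procollagen N-proteinases went different ways. Adamts3, which trims procollagen and in mouse brain also cuts reelin, had 157 reads in cKO-labelled cells and 309 in wild-type-labelled cells and was 1.98-fold lower (1.63 to 2.41). Adamts14 had 521 reads (cKO) and 395 (wild type), a ratio of 1.31 with an interval above 1. Adamts2, with 7 (cKO) and 2 (wild type) reads, was below the filter.

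Among the remaining ADAMTS enzymes Adamts19 was higher, with 51 reads in cKO-labelled cells and 20 in wild-type-labelled cells, a ratio of 2.54 (1.49 to 4.50). Adamts6, Adamts7, Adamts10, Adamts12 and Adamts17 were within 1.5-fold, with ratios between 0.771 (Adamts10) and 1.31 (Adamts17). Adamts16, with 8 (cKO) and 5 (wild type) reads, and Adamts18, with 0 (cKO) and 2 (wild type), were below the filter, and Adamts13 was listed with an estimated 0.49 reads in cKO-labelled cells.

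ADAMTS-like genes encode matrix proteins related to ADAMTS enzymes. Adamtsl3 had 711 reads in cKO-labelled cells and 342 in wild-type-labelled cells, or 37.6 CPM (cKO) against 18.2 CPM (wild type), a ratio of 2.07 (1.82 to 2.36). Adamtsl2, a fibrillin-binding protein gene, passed the filter in wild-type-labelled cells only, with 2 reads (cKO) against 24 (wild type), a ratio of 0.0830 with a wide interval (0.00951 to 0.334). Adamtsl4 had 48 (cKO) and 27 (wild type) reads and Adamtsl1 17 (cKO) and 32 (wild type), both within 1.5-fold with the added value. Without it their ratios were 1.77 (1.08 to 2.95) and 0.529 (0.276 to 0.982). Adamtsl5, with 12 (cKO) and 14 (wild type) reads, was below the filter.

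**Figure D4:**
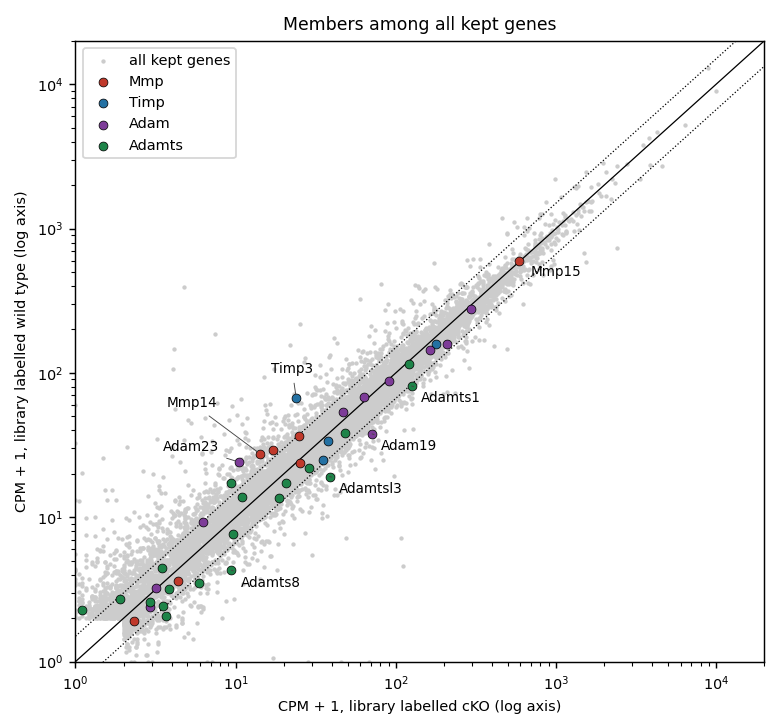
CPM + 1 in cKO-labelled cells (horizontal log axis) and wild-type-labelled cells (vertical log axis) for all 12618 kept genes in grey and the kept members in the colour of their family, with dotted lines at 1.5-fold. Timp3, Adam23 and Mmp14 lie above the band, Adam19, Adamts8 and Adamtsl3 below it, and Mmp15 on the diagonal.

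Genes that act with the members were described from 10 lists of partners, regulators and substrates. Each count is to be read beside all kept genes, of which 4.22% were higher and 10.2% lower by the same rule. At such a share of higher genes, a short list with 0 higher is unremarkable. A few genes with under 50 reads in the higher library were named after their values were seen, because they complete a small count: Pcsk5, Rhbdf2, Lgi4 and Ereg. Of 7 kept MMP regulators, 2 were higher and 2 lower in cKO-labelled cells (median 0.04). Thbs1 and Thbs2, which encode matricellular thrombospondins, had 100 reads (cKO) against 26 (wild type) and 68 (cKO) against 19 (wild type). Bsg, the MMP inducer basigin, was 1.65-fold lower (1.59 to 1.71), at 4748 reads (cKO) and 7791 (wild type), and Lcn2, whose human protein binds MMP9, was 1.82-fold lower (1.21 to 2.78). Reck, a membrane-anchored MMP inhibitor, had 76 (cKO) and 73 (wild type) reads.

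In the plasminogen activator system, a neighbouring protease cascade of the cell surface, 3 of 11 kept genes were higher, S100a10 and Plaur among them, and 0 lower (median 0.18). S100a10, part of a plasminogen receptor, had 5364 reads in cKO-labelled cells and 2031 in wild-type-labelled cells, a ratio of 2.63 (2.50 to 2.77). Plaur, the urokinase receptor gene, had 197 (cKO) and 81 (wild type) reads, a ratio of 2.42 (1.86 to 3.18). The tissue plasminogen activator gene Plat, with 8182 (cKO) and 5703 (wild type) reads, was within 1.5-fold, and so was its inhibitor Serpine2.

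Proprotein convertases, which activate many ADAM, ADAMTS and membrane-type MMP proenzymes, had 0 of 8 higher and 3 lower (median -0.29). Pcsk6 had 163 reads in cKO-labelled cells and 382 in wild-type-labelled cells, 2.35-fold lower (1.95 to 2.84). Pcsk2, a convertase of secretory granules, was 2.70-fold lower (1.81 to 4.10) and Pcsk5 2.26-fold (1.31 to 4.04). Furin itself had 876 reads (cKO) and 614 (wild type), a ratio of 1.42 (1.28 to 1.58), within 1.5-fold on the scale with the added value.

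Of 5 tetraspanins that escort ADAM10, 2 were lower and 0 higher (median -0.23). These were Tspan17, 2.67-fold lower (2.09 to 3.45) in cKO-labelled cells, and Tspan33, 1.63-fold lower (1.26 to 2.12). Among 4 ADAM17 regulators 2 were lower and 0 higher (median -0.38). The sorting protein gene Pacs2 was 1.58-fold lower (1.45 to 1.72), and Rhbdf2, which encodes an iRhom carrier of ADAM17, had 4 reads (cKO) against 22 (wild type). Its relative Rhbdf1, with 905 (cKO) and 983 (wild type) reads, was within 1.5-fold.

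Substrates of ADAM10 and ADAM17 were split, with 6 of 17 kept genes higher and 2 lower in cKO-labelled cells (median -0.10). Ligands of EGF family receptors lay among both. Hbegf had 6689 reads in cKO-labelled cells and 3168 in wild-type-labelled cells, a ratio of 2.10 (2.02 to 2.19). Areg had 145 (cKO) and 31 (wild type) reads, a ratio of 4.66 (3.14 to 7.11), Ereg 35 (cKO) and 6 (wild type), and the neuregulin gene Nrg1 696 (cKO) and 413 (wild type), a ratio of 1.68 (1.48 to 1.90). Tgfa went the other way, with 1048 reads (cKO) and 2185 (wild type), 2.09-fold lower (1.94 to 2.26). The interleukin 6 receptor gene Il6ra (ratio 2.59, 1.85 to 3.70) and the hyaluronan receptor gene Cd44 (1.61, 1.55 to 1.67) completed the higher genes, and Notch3, 2.27-fold lower (1.93 to 2.67), the lower ones. App, Cdh2, Notch1 and Notch2 were within 1.5-fold.

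LGI genes encode the ligands of ADAM11, ADAM22 and ADAM23. Of 3 kept, 2 were lower in cKO-labelled cells. Lgi3 had 140 reads in cKO-labelled cells and 333 in wild-type-labelled cells, 2.39-fold lower (1.95 to 2.93), and Lgi4 had 2 reads (cKO) against 29 (wild type). Lgi2, with 248 (cKO) and 293 (wild type) reads, was within 1.5-fold, and Lgi1, with 3 (cKO) and 5 (wild type), was below the filter.

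Proteoglycan substrates of ADAMTS enzymes were listed with the link protein genes that bind them to hyaluronan, and of 6 kept, 4 proteoglycan and 2 link protein genes, 0 were higher and 3 lower (median -0.61). Brevican (Bcan) had 6299 reads in cKO-labelled cells and 11546 in wild-type-labelled cells, 1.84-fold lower (1.78 to 1.90), and versican (Vcan) had 1090 (cKO) and 1914 (wild type), 1.76-fold lower (1.64 to 1.90). Aggrecan (Acan) was 2.04-fold lower (1.27 to 3.37), with 27 (cKO) and 55 (wild type) reads. Neurocan (Ncan), with the most reads of them, had 25938 (cKO) and 37265 (wild type) reads and a ratio of 0.693 (0.682 to 0.704), within 1.5-fold. The link protein genes Hapln3, with 10 (cKO) and 20 (wild type) reads, and Hapln4, with 261 (cKO) and 237 (wild type), were within 1.5-fold with the added value. Hapln3 passed the filter in wild-type-labelled cells only, and without the added value its ratio was 0.498 (0.208 to 1.11). Hapln1, with 0 (cKO) and 10 (wild type) reads, and Hapln2, with 0 (cKO) and 1 (wild type), were below the filter. The 4 proteoglycan genes lay below 0, while 6 of the 7 proteoglycanases lay above it, where 47.8% of all kept genes did. Ncan and 4 of the 7 proteoglycanases were within 1.5-fold, and a relation between the groups was not tested. Among 7 other membrane proteases and their partners 0 were higher and 1 was lower (median -0.18), the presenilin gene Psen2 at 1.68-fold lower (1.29 to 2.20). Of the 3 kept synapsin genes that hold TIMP genes, 0 were 1.5-fold apart.

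**Figure D5:**
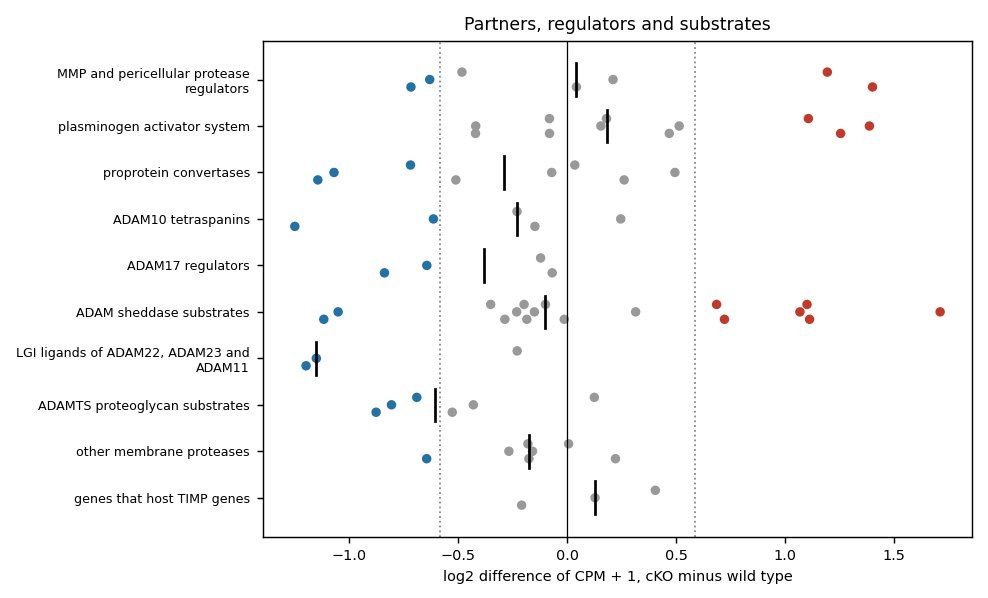
Log2 difference of CPM + 1, cKO minus wild type, of each kept gene in the 10 lists of partners, regulators and substrates, with the median of each list as a black bar and dotted lines at 1.5-fold (red higher, blue lower, grey within). ADAM sheddase substrates have 6 genes higher and 2 lower, and the list of ADAMTS proteoglycan substrates, link proteins included, 0 higher and 3 lower. Over all kept genes 4.22% were higher and 10.2% lower.

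Markers of cell types that can express these genes were read beside them. The 12 astrocyte markers had a median log2 difference of -1.23, and their CPM summed to 2940 in cKO-labelled cells and 5771 in wild-type-labelled cells. The 18 oligodendrocyte lineage markers summed to 2532 CPM (cKO) and 4005 CPM (wild type), with a median of -2.63 over the 16 kept, and Mobp at 0 reads (cKO) against 6 (wild type). Pericyte and fibroblast markers were scarce, at 30.1 CPM (cKO) and 54.0 CPM (wild type) in sum, with 4 of 6 kept lower and 0 higher, among them Pdgfrb at 41 (cKO) and 84 (wild type) reads. Endothelial markers summed to 8.41 CPM (cKO) and 9.29 CPM (wild type), and in TPM lay the other way, at 2.75 (cKO) and 2.53 (wild type). Those of microglia summed to 5.13 (cKO) and 3.34 CPM (wild type), nearly all from Cd68, with Cx3cr1 and Csf1r at 0 reads (cKO) against 1 (wild type) each. For choroid plexus and ependymal markers the sums were 10.5 (cKO) and 13.9 CPM (wild type), and for neuronal markers 623 (cKO) and 744 CPM (wild type), with 2 of 8 kept higher (Nefm, ratio 2.49, and Nefl, 1.77) and 2 lower (Dcx, 10.3-fold, and Snap25, 1.73-fold). What part the glial and pericyte markers have in the levels of Timp3, Mmp14 and Adam23 was not tested.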

How the data were processed

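Total RNA of mouse neural stem cells in suspension culture was sequenced in 1 library per genotype, and groups follow the genotype labels. GRCm38.p6 is the build that the submitters' processing notes name. The sources used here do not state aligner, counter, annotation or strand setting. For each gene the deposited table holds an estimated count of reads, headed read count per the file headers, 89.8% (cKO) and 90.0% (wild type) of which were whole numbers. The authors also deposited TPM, FPKM and a normalized signal, per the file headers, of which TPM was used for levels between genes and the FPKM and signal columns only read for their range.

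Estimated counts were rounded to whole reads and divided by library totals. Of the 58 members 4 had a count that was not whole. The filter was 1 CPM in at least 1 library, 1 CPM was added before log2, and the fold was 1.5. Intervals are Clopper-Pearson (scipy 1.17.1), and without molecular identifiers they may be too narrow. No fold is given where both counts are 3 or fewer. The calculation was tested on simulated counts with counting error only, which checks the arithmetic and not variation between libraries. TMM factors came from edgeR 4.0.16. Coordinates and upstream sequences are from RefSeq (GRCm38.p6), matched by gene number for 58 members and 37 members, and exon overlaps are from GENCODE M21.

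Named were all TIMP genes, every member 1.5-fold apart, the 3 most abundant of each family and, of the partner lists, genes 1.5-fold apart with at least 50 reads in the higher library. The other members are given to account for all 58, and other partner and marker genes were named after their values were seen. Members and lists were chosen with earlier results of these data known. Some values of genes outside the 58 are not reported here.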

Additional observations from a re-analysis of the deposited data

How the results depend on the processing

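Leaving out a library was not possible, and no paired analysis was possible because each genotype has 1 library. Counts of 6 higher and 6 lower members stood at 4 to 7 and 5 to 8 under TMM scaling, median-of-ratios scaling, no filter, a filter of 5 CPM, an added value of 0.25 CPM, TPM in place of CPM, and removal of the GC trend in 20 bins, the last chosen after seeing the data. At 2-fold they were 2 higher and 3 lower, and over all kept genes 158 and 486, against 532 and 1290 at 1.5-fold. The MMP median moved to -0.55 with the 5 CPM filter, which leaves out the low secreted members, and to -0.24 with TPM. The MMP median also lay at 0.02 with TMM and the ADAM median at -0.03 without a filter, so these signs depend on the setting. Where they had a value, 0 of the 12 members 1.5-fold apart changed sign, but Adamts19 and Adamtsl2 were below the filter of 5 CPM and of TPM, and Adamts15 below that of 5 CPM. Mmp16 (-0.61) and Adamtsl4 (0.64) passed 1.5-fold with the GC trend removed. With 0.25 CPM added, Adamtsl4 (0.73), Adam11 (-0.65) and Adamtsl1 (-0.76) passed it. By TPM, with 1 TPM added to each value, Adamts15 came within 1.5-fold (0.45) and Adam23 moved to -0.88. The cause was not tested. Members under 50 reads in both libraries have intervals that include 1, other than Adamtsl1, Adamtsl2 and Adamtsl4.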
